A study of Saccharomyces cerevisiae with 23 samples.

Results

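A group of 10 heat shock protein and chaperone genes of budding yeast, out of 6256 genes on the array, was followed through hyperosmotic stress in wild-type cells and in cells whose corepressor subunits Tup1 and Cyc8 cannot be sumoylated at given lysines. They were given by systematic name as HSP12 (YFL014W), HSP26 (YBR072W), HSP42 (YDR171W), HSP30 (YCR021C), HSP104 (YLL026W), SSA3 (YBL075C), SSA4 (YER103W), SSE2 (YBR169C), HSP82 (YPL240C) and HSC82 (YMR186W), by name rather than by a threshold on their values. In wild-type cells 9 of the 10 rose by 30 min in sorbitol, led by HSP12 at 93.5 times its unstressed level. In the 3 mutants 0 of the 10 genes were called different from wild type at any time in the main fit, as were 0 of all 6201 probes tested. The 95% interval of a difference under stress reached a median of 0.83 log2 units either side.

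Heat shock proteins are chaperones and related stress proteins that keep other proteins folded, pull apart aggregates or protect membranes. In yeast most of their genes are driven by the heat shock factor Hsf1, by the general stress factors Msn2 and Msn4, or by both, so many of them also respond to stresses other than heat. Cyc8-Tup1 is a corepressor that is brought to promoters by DNA-bound repressors, and one of these, Sko1, acts in the response to high osmolarity together with the kinase Hog1.

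Transcripts were measured on 2-color Agilent arrays, where the sample and a reference carry different dyes on the same array. The groups were Tup1K270R, Cyc8-4KtoR (K735R, K736R, K738R and K748R) and the double mutant Tup1K270R/Cyc8-4KtoR at 0, 30 and 60 min in 1.2 M sorbitol, and wild type at 30 and 60 min. All strains were BY4741 derivatives (met15, his3, ura3 and leu2 deleted alleles) that carry 6His-FLAG-tagged SMT3, the yeast SUMO gene, and in which TUP1 and CYC8 had been deleted and put back with the markers URA3 and LEU2 under their own promoters. The wild type therefore also carries reintegrated TUP1 and CYC8 and the tagged SUMO gene. Each group had 2 samples, called A and B, from isolates of separate transformations. The RNA on the other channel came from unstressed wild-type cells of the same set, which gives 22 arrays in 11 groups, and a further array set the unstressed wild type of set B against that of set A. On the 22 arrays the samples of set A carried Cy3 and those of set B carried Cy5, so dye, isolate and reference culture cannot be told apart. The Tup1K270R isolate of set A has, by the study's methods, an aneuploid stretch from YDR211W to YDR261C. It holds no gene of the group, and its 51 probes were left out for all samples.

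A value below is the log2 ratio of a sample over unstressed wild type, so that 0 is the unstressed wild-type level and 1 is a doubling, and it can be set against the same gene in other samples but not read as a level against another gene. Each gene was represented by 1 probe printed as 2 spots, and all 10 probes were well above background in both channels on all 23 arrays. A gene was called changed at an adjusted p under 0.05 in a limma fit over 6201 probes. The comparison with 0 min takes the ratio against 0 and so leaves out the spread of the unstressed control. SSA3 and SSA4, and still more HSP82 and HSC82, are close paralogs, and whether their probes also bind the partner's RNA was not tested. The double-mutant labels of set B conflict: the titles, which were used, give 30 and 60 min in the order opposite to that of the source names, and on the 0 min array the source names exchange the dyes. By the source names every value of double-mutant sample B at 0 min below would change sign, and its values at 30 and 60 min would change places. By the titles, the log2 ratios of double-mutant sample B had an SD over probes of 0.94 at 30 min and 0.65 at 60 min. Those of double-mutant sample A had 0.94 and 0.75. Which labels are right was not tested. The arrays measure RNA and cannot show the amino acid changes themselves. As a check of the stress, the osmotic markers STL1, a glycerol transporter, and CTT1, the cytosolic catalase, were 47.5-fold and 36.0-fold higher in wild-type cells at 30 min.

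The first question was how the group responds to sorbitol in wild-type cells. The small hydrophilic protein Hsp12, which binds membranes, and the small heat shock proteins Hsp26 and Hsp42, which hold unfolded proteins in a refoldable state, come from the genes with the widest range of responses. HSP12 had log2 ratios of 5.85 and 7.24 in the wild-type samples A and B at 30 min, with a mean of 6.55 ± 0.98 (SD, n = 2) and an adjusted p of 9.03e-09. At 60 min its ratios were 6.93 and 6.46, a mean of 6.69 ± 0.33 (SD, n = 2) or 103-fold (adjusted p = 1.38e-08). These were the highest mean ratios among the 6201 probes at both times. HSP42 reached 3.00 and 3.75 at 30 min, a mean of 3.38 ± 0.53 (SD, n = 2) or 10.4-fold (adjusted p = 6.57e-07), and had 2.03 and 1.45 at 60 min, a mean of 1.74 ± 0.41 (SD, n = 2) or 3.34-fold (adjusted p = 0.000618). HSP26 had 2.68 and 1.24 at 30 min, a mean of 1.96 ± 1.02 (SD, n = 2) or 3.89-fold (adjusted p = 0.00546). At 60 min its samples lay close together at 1.20 and 1.03, a mean of 1.11 ± 0.12 (SD, n = 2), and it was not called (adjusted p = 0.167).

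Hsp30 is a small protein of the plasma membrane that lowers the activity of the proton pump Pma1 under stress, and Hsp104 is the disaggregase that extracts proteins from aggregates. HSP30 had 1.51 and 0.67 in wild-type cells at 30 min, a mean of 1.09 ± 0.59 (SD, n = 2) or 2.13-fold (adjusted p = 0.00613). At 60 min both samples were close to the unstressed level, with 0.03 and -0.19 (adjusted p = 0.92). HSP104 had 1.96 and 2.45 at 30 min, a mean of 2.20 ± 0.35 (SD, n = 2) or 4.61-fold (adjusted p = 4.62e-05). It stood at 1.80 and 1.05 at 60 min, which was still called higher (2.68-fold, adjusted p = 0.00452). HSP30 was thus the only gene of the group whose mean at 60 min lay below 0.

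Ssa3 and Ssa4 are the stress-inducible members of the cytosolic Hsp70 family, and Sse2 is an Hsp110 protein that exchanges the nucleotide of Hsp70. SSA4 had 2.07 and 2.72 in wild-type cells at 30 min, a mean of 2.40 ± 0.46 (SD, n = 2) or 5.28-fold (adjusted p = 1.9e-06), and 1.85 and 1.66 at 60 min (3.38-fold, adjusted p = 8.55e-05). SSE2 had 1.69 and 2.43 at 30 min (4.17-fold, adjusted p = 1.77e-06), and 1.83 and 1.51 at 60 min (3.18-fold, adjusted p = 2.98e-05). SSA3 had smaller ratios, of 0.40 and 0.86 at 30 min, a mean of 0.63 ± 0.32 (SD, n = 2) or 1.55-fold (adjusted p = 0.0139). Its 0.47 and 0.21 at 60 min were not called (adjusted p = 0.279).

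Hsp90, which matures kinases, receptors and other clients, has an inducible and a constitutive gene. HSP82, the inducible one, had 1.94 and 2.13 in wild-type cells at 30 min, a mean of 2.03 ± 0.13 (SD, n = 2) or 4.09-fold (adjusted p = 6.18e-05), and 2.53 and 1.93 at 60 min (4.69-fold, adjusted p = 8.08e-05). HSC82, the constitutive one, had 0.57 and 0.11 at 30 min, a mean of 0.34 ± 0.32 (SD, n = 2), and was the gene of the group that was not called at that time (adjusted p = 0.259). At 60 min it had 0.50 and 0.73, a mean of 0.61 ± 0.16 (SD, n = 2), again not called (adjusted p = 0.0986).

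**Figure D1:**
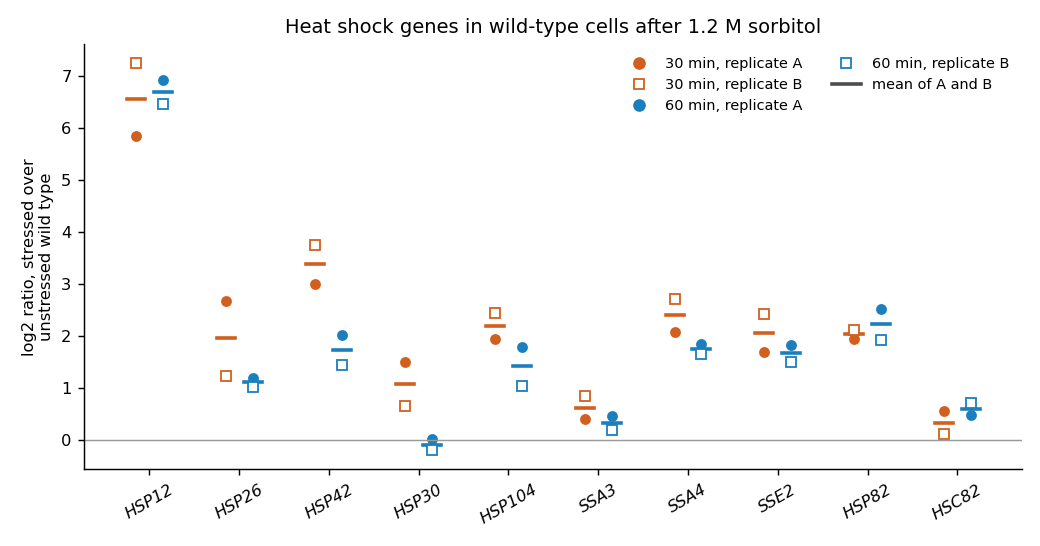
Log2 ratio of wild-type cells in 1.2 M sorbitol over unstressed wild-type cells (vertical axis) for the 10 genes, with filled circles for replicate A, open squares for replicate B and a bar for their mean, in orange at 30 min and blue at 60 min. HSP12 lies between 5.85 and 7.24 at both times, and HSP30 drops to 0.03 and -0.19 at 60 min.

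In all, 9 of the 10 genes were called higher and 0 lower in wild-type cells at 30 min, where 18% of all 6201 probes were called higher and 19.4% lower. The median of the 10 was 2.05 log2 units, against -0.06 over all probes. At 60 min 6 were called higher and 0 lower, against 7.1% and 5.39% of all probes, with medians of 1.55 and -0.01. At the methods' cutoff of 0.65 log2 units on the mean, 8 genes were past it at 30 min and 7 at 60 min, against 16.3% and 8.13% of all probes. With the replicate set as a block, HSP26 (adjusted p = 0.0103) and HSC82 (adjusted p = 0.0181) were also called at 60 min, against 11.3% of all probes called higher in that fit. Without sample A the calls of HSP26 (1.24, adjusted p = 0.168) and HSP30 (0.67, adjusted p = 0.181) at 30 min and of HSP42 (1.45, adjusted p = 0.0624) and HSP104 (1.05, adjusted p = 0.242) at 60 min were lost, and without sample B that of SSA3 at 30 min (0.40, adjusted p = 0.232).

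How far the responses had subsided between 30 and 60 min was compared next. HSP42 had 2.03 and 1.45 in wild-type cells at 60 min, against 3.00 and 3.75 at 30 min, so its samples did not overlap. The difference was -1.64 log2 units (SE 0.39, adjusted p = 0.0128), and HSP42 was the 1 gene of the group called lower at 60 min, where 6.11% of all probes were called lower and 7.42% higher. HSP30 was lower by 1.17 log2 units in its mean (adjusted p = 0.061), HSP26 by 0.85 (adjusted p = 0.476), HSP104 by 0.78 (adjusted p = 0.2515) and SSA4 by 0.64 (adjusted p = 0.209). In each of these too the samples of the later time lay below those of the earlier time, in HSP26 only just (1.20 against 1.24). How many of all probes separate in this way was not counted. With the replicate set as a block HSP30 and HSP104 passed the threshold as well (HSP30 adjusted p = 0.0173, HSP104 adjusted p = 0.0452), where 11.3% of all probes were called lower. HSP12, HSP82 and HSC82 had higher means at 60 min than at 30 min, by 0.15, 0.20 and 0.27 log2 units, with overlapping samples and intervals of the difference that include 0, and in signals taken before the spatial correction described next HSP82 was at -0.16. Without sample B, HSP42 was no longer called either (-0.97, adjusted p = 0.344).

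The pair of wild-type samples at 30 min disagreed in a way that followed where a gene's spots sit on the array. HSP26, HSP30 and HSC82, whose spots lie in the first 24 of the 82 columns, were higher in sample A than in sample B, by 1.45, 0.84 and 0.45 log2 units. The other 7 genes, with mean spot columns from 41 to 71.5, were all lower in sample A, from -0.19 for HSP82 to -1.39 for HSP12. On both of these arrays the scanner software had corrected the Cy3 signals, and not the Cy5 signals, for a trend across the slide (detrending). In the background-subtracted signals from before that step, normalized here by loess, the differences lay between -0.19 and 0.40 and showed no such split. HSP26 then had 1.91 and 2.10, HSP30 1.30 and 1.35, and HSP12 6.60 and 6.74. With these signals 9 genes were called higher at 30 min and 9 at 60 min, but 34.7% and 24.1% of all probes were called higher as well, and 5 genes differed between 60 and 30 min. Of these HSC82 was higher and HSP26, HSP30, HSP42 and SSA4 were lower at 60 min, beside 23.4% and 25.8% of all probes.

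**Figure D2:**
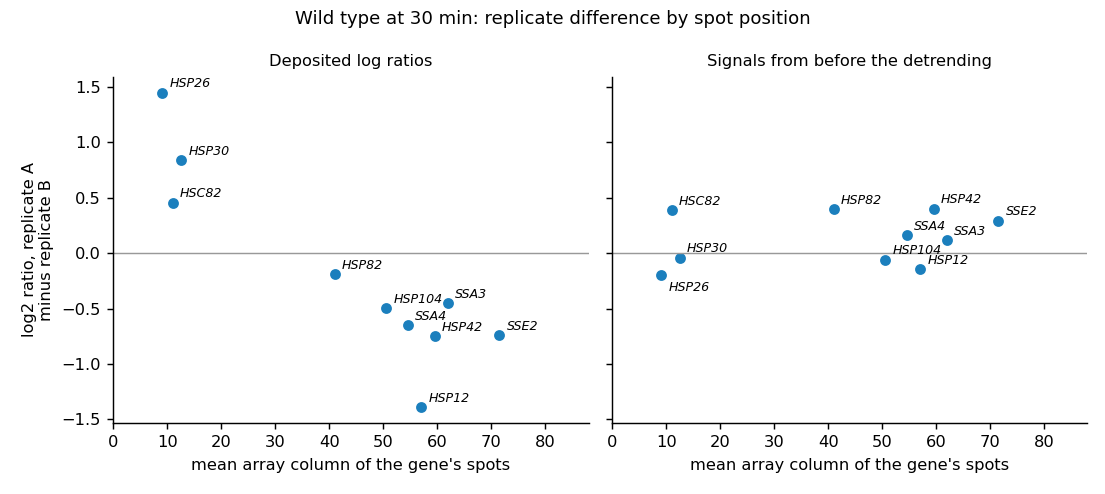
Log2 ratio of replicate A minus replicate B in wild-type cells at 30 min (vertical axis) against the mean array column of each gene's 2 spots (horizontal axis), from the deposited log ratios (left) and from signals of before the detrending (right). On the left the 3 genes in the first columns lie above 0 and the other 7 below, and on the right all lie between -0.19 and 0.40.

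Unstressed cells were compared to ask whether losing the sumoylation sites alters the group before any stress. HSP12 was the gene that stood furthest from wild type in each mutant. It had log2 ratios of -1.12 and -1.0 in Tup1K270R samples A and B, a mean of -1.06 ± 0.09 (SD, n = 2), against the unstressed wild-type level of 0. In Cyc8-4KtoR it had 2.06 and 0.57, a mean of 1.31 ± 1.05 (SD, n = 2). In the double mutant it had 1.75 and 0.88, a mean of 1.31 ± 0.61 (SD, n = 2). By the titles both samples of Tup1K270R thus lay below wild type and all 4 samples of the other mutants above it, but none of the means passed the test over all probes (adjusted p = 0.362 in Tup1K270R, 0.958 in Cyc8-4KtoR and 0.327 in the double mutant). Unstressed wild type of set B had 0.63 more HSP12 than that of set A on a log2 scale, an amount like the smallest of these values. With normexp background correction and loess it was 0.43. Set B carried Cy3 on that array and no array had these dyes exchanged, so dye and culture cannot be told apart there. By its source names double-mutant sample B would be at -0.88, below wild type, and the mean of that mutant at 0.43. With normexp background correction and loess the double mutant had 0.08 and 0.78, a mean of 0.43, and Tup1K270R had -0.49 and -0.94, a mean of -0.71, while Cyc8-4KtoR had 1.98 and 0.41. In the signals from before the detrending, HSP12 had -0.78 and -1.42 in Tup1K270R, 2.41 and 0.57 in Cyc8-4KtoR, and 2.02 and 0.88 in the double mutant. Only with those signals and the replicate set as a block together, an alternative added after the data were seen, was it called, in Cyc8-4KtoR (1.49, adjusted p = 0.00705) and in the double mutant (1.45, adjusted p = 0.0027) but not in Tup1K270R (-1.10, adjusted p = 0.0733), where 0.799% of all probes were called higher in Cyc8-4KtoR and 4.45% in the double mutant.

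The other 9 genes lay nearer to wild type in their means, from -0.39 for HSP104 to 0.68 for HSC82 in Tup1K270R, from -0.28 for SSA4 to 0.45 for HSP26 in Cyc8-4KtoR, and from -0.58 for HSP42 to 0.54 for HSP26 in the double mutant. HSC82 had 1.20 and 0.16 in Tup1K270R, where sample A alone carried most of the mean, and 0.13 in sample A in the signals from before the detrending. HSP26 likewise had 0.78 and -0.76 in Tup1K270R, 1.00 and -0.10 in Cyc8-4KtoR, and 1.20 and -0.12 in the double mutant, so that by the titles sample A was above wild type and sample B below it in all 3. In the signals from before the detrending HSP26 had 0.06 and -0.40, 0.52 and -0.10, and 0.66 and -0.11 in the same order of mutants. HSP42 had -0.36 and -0.79 and SSE2 -0.59 and -0.28 in the double mutant, each below wild type in both samples by the titles. In the signals from before the detrending HSP42 had -0.22 and -0.79 there, and SSE2 had -0.17 and -0.27, a mean of -0.22. With normexp background correction and loess, double-mutant sample A was at -0.02 for HSP42 and -0.006 for SSE2. By the source names sample B of that mutant would be above wild type in both genes, with means of 0.22 for HSP42 and -0.16 for SSE2. In the main limma fit, 0 of the 10 genes and 0 of the 6201 probes were called in any mutant at 0 min. At an unadjusted p under 0.05 the counts were 1 higher (HSC82) and 1 lower (HSP12) in Tup1K270R, 1 higher (HSP12) in Cyc8-4KtoR, and 1 higher (HSP12) and 1 lower (SSE2) in the double mutant. The same rule took 5.13% of all probes as higher and 3.95% as lower in Tup1K270R, 1.32% and 1.1% in Cyc8-4KtoR, and 2.95% and 2.02% in the double mutant. With 2 samples a group the median 95% interval of the 10 reached 0.59 log2 units either side of the mean.

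**Figure D3:**
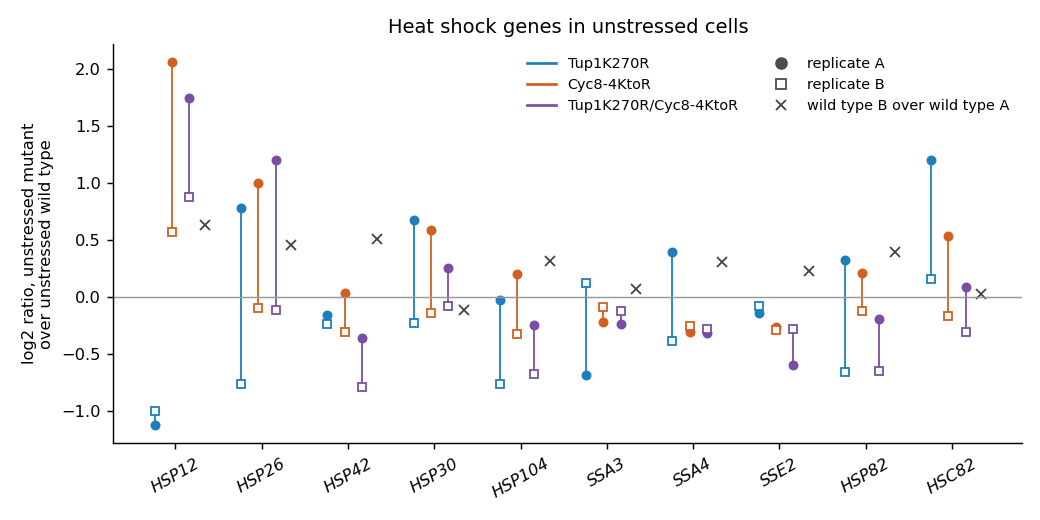
Log2 ratio of unstressed mutant over unstressed wild-type cells (vertical axis) for the 10 genes, with filled circles for replicate A, open squares for replicate B joined by a line, in one color per mutant, and a cross for unstressed wild type of set B over that of set A. HSP12 lies at -1.12 and -1.0 in Tup1K270R and between 0.57 and 2.06 in the mutants that carry Cyc8-4KtoR.

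Stressed cells of each mutant were then set against stressed wild type. At 30 min HSP12 had 6.52 and 5.92 in Tup1K270R, 6.88 and 6.55 in Cyc8-4KtoR, and 7.26 and 6.71 in the double mutant, against 5.85 and 7.24 in wild type. The mutant samples lay between or just above the wild-type ones, and the differences were -0.33, 0.17 and 0.44 log2 units with 95% intervals from -1.36 to 0.70, from -0.86 to 1.20 and from -0.59 to 1.47. HSP42 had 3.67 and 2.78, 3.77 and 3.17, and 3.54 and 3.19 in the same order of mutants, against 3.00 and 3.75 in wild type, with differences between -0.15 and 0.09. The largest difference of the group was that of HSP26 in the double mutant, with 2.67 and 2.45 there against 2.68 and 1.24 in wild type (0.60, 95% interval from -0.87 to 2.06). HSP82 followed with 2.81 and 2.41 in the double mutant against 1.94 and 2.13 in wild type, each mutant sample above each wild-type sample (0.58, 95% interval from -0.27 to 1.43). In the signals from before the detrending HSP82 had 2.87 and 2.47 in the double mutant against 2.60 and 2.20 in wild type, so that the samples overlapped, and the difference was 0.27. By the source names of set B the double mutant would differ from wild type at 30 min by 0.22 in HSP26, 0.19 in HSP82 and -1.26 in HSP42. HSC82 had differences of -0.01 in Tup1K270R and 0.01 in each of the others.

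Over the 10 genes at 30 min, the median difference from wild type was -0.15 in Tup1K270R, 0.14 in Cyc8-4KtoR and 0.15 in the double mutant, against 0.02 to 0.03 over all probes. The mean was above wild type for 3 genes in Tup1K270R, for 10 in Cyc8-4KtoR and for 9 in the double mutant, where 53.0%, 54.9% and 54.4% of all probes were above it. The 3 comparisons share the 2 wild-type arrays at 30 min, so these counts are not independent of each other. The differences also depended on the set. HSP12 differed from wild type by 0.66, 1.03 and 1.41 in set A and by -1.32, -0.70 and -0.53 in set B, in the order Tup1K270R, Cyc8-4KtoR and double mutant. In the signals from before the detrending these were -0.01, 0.37 and 0.74 in set A and -0.59, -0.12 and 0.05 in set B. Limma called 0 of the 10 genes and 0 of the 6201 probes in any mutant at 30 min, and 0 genes also at an unadjusted p under 0.05, where the share of all probes was 1.32% higher and 0.548% lower in Tup1K270R, 1.27% and 0.29% in Cyc8-4KtoR, and 1.73% and 0.645% in the double mutant.

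At 60 min HSP42 had 1.26 and 1.29 in Tup1K270R, 1.70 and 0.74 in Cyc8-4KtoR, and 1.33 and 0.70 in the double mutant, against 2.03 and 1.45 in wild type. The double-mutant and Tup1K270R samples all lay below both wild-type ones, and the differences were -0.46, -0.52 and -0.73 in the order of the mutants. By the source names of set B the difference of the double mutant would be 0.52. In the signals from before the detrending HSP42 had 1.64 and 1.14 in Tup1K270R and 1.60 and 0.70 in the double mutant, against 2.07 and 1.45 in wild type. The samples then overlapped, and the differences of the 3 mutants were -0.37, -0.39 and -0.61. SSE2 had 1.07 and 1.11 in the double mutant against 1.83 and 1.51 in wild type, a difference of -0.58 (95% interval from -1.15 to -0.01, unadjusted p = 0.048 by limma, adjusted p = 0.998), the only one of the 30 at 60 min with an unadjusted p under 0.05. Under the other reading of the labels it would be -0.12 (unadjusted p = 0.763 by limma). In the signals from before the detrending SSE2 had 1.28 and 1.13 in the double mutant against 1.66 and 1.52 in wild type, a smaller difference of -0.38. HSP26 ran the other way in the strains with Cyc8-4KtoR, with 2.67 and 1.19 in Cyc8-4KtoR and 2.42 and 1.70 in the double mutant, against 1.20 and 1.03 in wild type. Those differences were 0.82 and 0.95 with 95% intervals from -0.65 to 2.28 and from -0.52 to 2.41, and in the signals from before the detrending 0.56 and 0.68. HSP12 had 6.09 and 6.37 in Tup1K270R, 6.38 and 6.33 in Cyc8-4KtoR, and 6.33 and 6.62 in the double mutant, against 6.93 and 6.46 in wild type.

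The median difference of the 10 genes at 60 min was -0.26, -0.13 and -0.22 in the 3 mutants, against -0.01 over all probes. A mean above wild type was found for 0, 3 and 2 genes, where 47.9%, 48.5% and 49.1% of all probes were above it. The 3 comparisons share the wild-type arrays at 60 min, so these counts are not independent of each other. Limma called 0 genes of the group and 0 of the 6201 probes in each mutant, and at an unadjusted p under 0.05 0, 0 and 1, where that rule took 0.177%, 0.661% and 0.984% of all probes as higher and 0.177%, 0.435% and 1.27% as lower. The median 95% interval at both stress times reached 0.83 log2 units either side. In set A the wild-type sample at 60 min lay on another slide than the mutant samples, and in set B the wild-type and Tup1K270R samples at 30 min lay on another slide than the other 2 mutants. With the slide as a fixed or as a random block 0 genes were called in any of these comparisons.

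**Figure D4:**
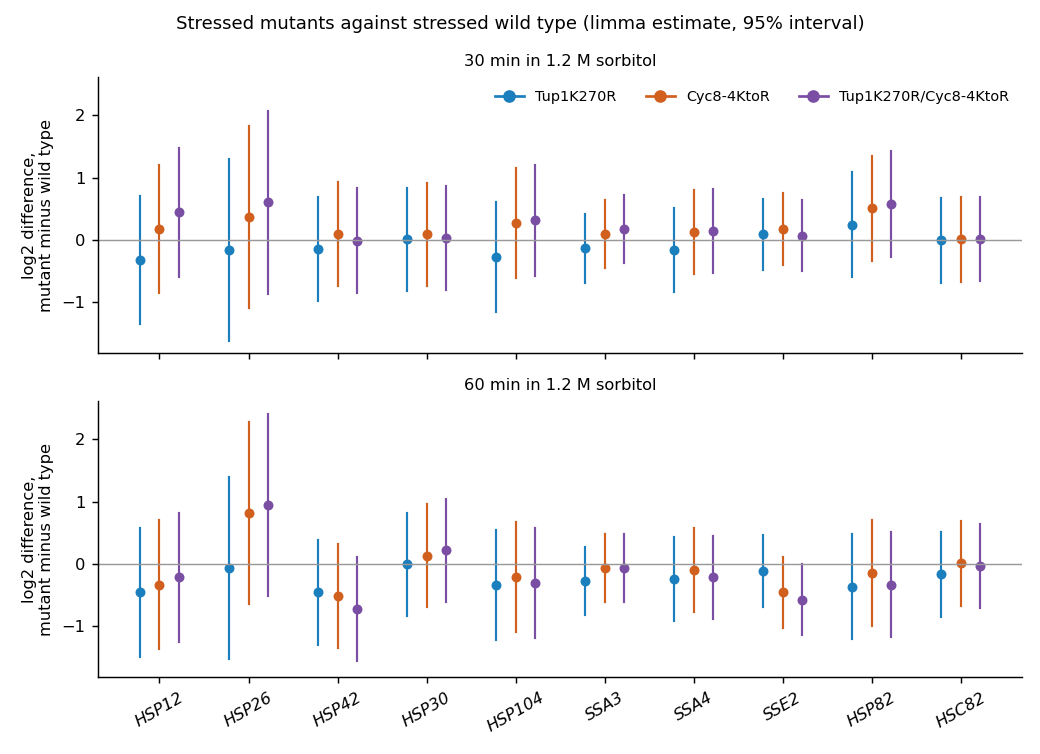
Difference in log2 ratio between each mutant and wild type (vertical axis) for the 10 genes at 30 min (top) and 60 min (bottom) in sorbitol, with points for the limma estimate and lines for its 95% interval. All but 1 of the intervals include 0, and that of SSE2 in the double mutant at 60 min ends at -0.01.

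The response of each mutant was also measured from its own unstressed level. HSP12 was higher at 30 than at 0 min by 7.28 log2 units in Tup1K270R, 5.40 in Cyc8-4KtoR and 5.67 in the double mutant, against 6.55 in wild type. HSP42 was higher by 3.42, 3.61 and 3.94, against 3.38 in wild type, and HSP82 by 2.44, 2.49 and 3.03, against 2.03. Of the 10 genes, 7 were called higher in Tup1K270R, 7 in Cyc8-4KtoR and 8 in the double mutant, where 12.5%, 12.4% and 12.7% of all probes were called higher and 10.3%, 10.3% and 11.8% lower. HSC82 was not called in any of them, and HSP30 was not either (0.88, 0.95 and 1.03, with adjusted p = 0.124, 0.0955 and 0.0681). HSP26 was higher by 2.01 in the double mutant (adjusted p = 0.0447), and had 1.79 and 1.87 in the single mutants (adjusted p = 0.0767 and 0.0638). With the replicate set as a block, HSP26 and HSP30 were called in all 3 mutants (9 genes in each, beside 17.8%, 17.9% and 17.8% of all probes). The call of HSP26 in the double mutant was lost without sample A (2.56, adjusted p = 0.15) and without sample B (1.46, adjusted p = 0.423), and that of SSA3 was lost without sample A in Tup1K270R (0.29, adjusted p = 0.519) and without either sample in the other mutants. If the double-mutant samples of set B are read by their source names, 4 of its genes were called in place of 8. All probes were not counted under that reading, so the drop is not read as particular to these genes.

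The difference between a mutant's response and that of wild type was tested directly. For HSP12 it was 0.73 in Tup1K270R (95% interval from -0.53 to 1.99), -1.15 in Cyc8-4KtoR (from -2.41 to 0.12) and -0.87 in the double mutant (from -2.14 to 0.39), a quantity that holds the unstressed value of the mutant with its sign turned. With the dyes of the 0 min array exchanged, as its source names have them, that of the double mutant would be 0.0036. For HSP82 in the double mutant it was 1.00 (from -0.05 to 2.04), but 0.54 in the signals from before the detrending and 0.35 by the source names of the 0 min array. The medians of the 10 genes were 0.08, 0.24 and 0.39, against 0.05, 0.06 and 0.04 over all probes. By limma 0 genes of the group and 0 of the 6201 probes were called in any mutant after adjustment. At an unadjusted p under 0.05 the group also had 0, where 2.69% of all probes were higher and 1.61% lower in Tup1K270R, 1.48% and 0.339% in Cyc8-4KtoR, and 1.66% and 1.19% in the double mutant.

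**Figure D5:**
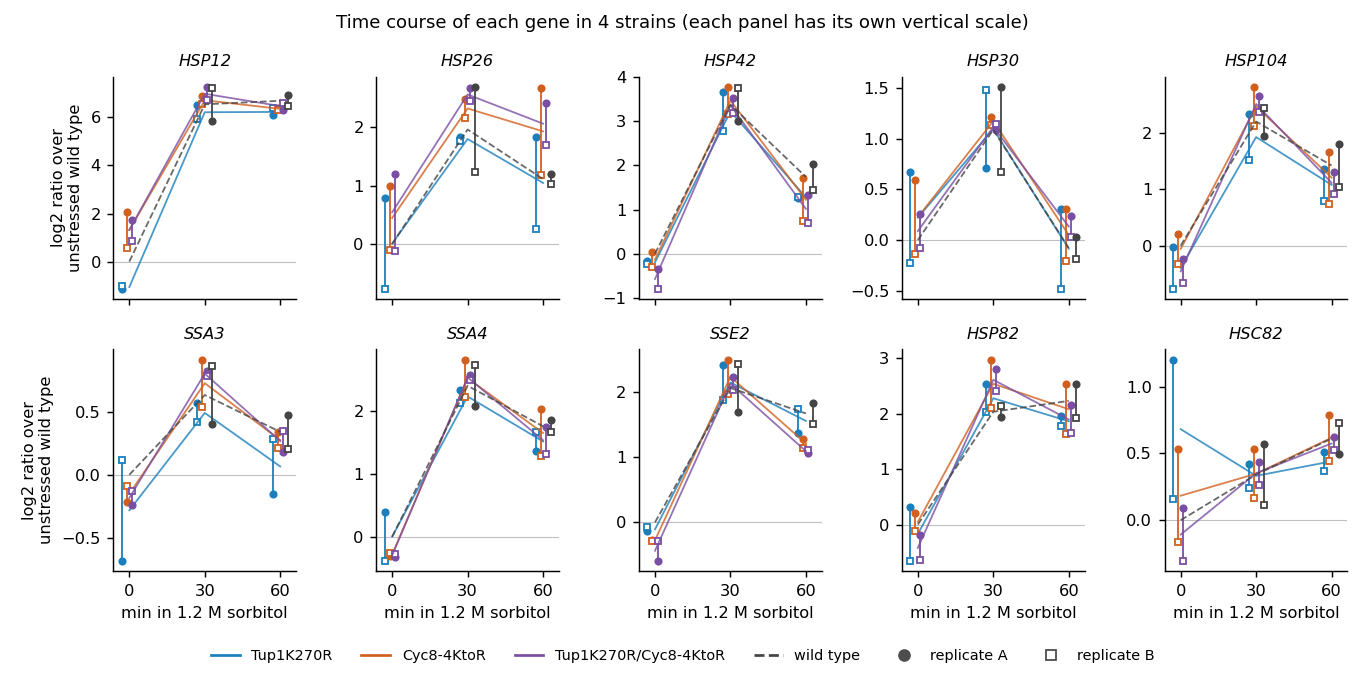
Log2 ratio over unstressed wild-type cells (vertical axis, a scale of its own in each panel) at 0, 30 and 60 min in 1.2 M sorbitol (horizontal axis), with filled circles for replicate A, open squares for replicate B and lines through the means, in one color per mutant and a dashed line for wild type, which is 0 at 0 min by construction. HSP12 starts between -1.12 and 2.06 in the mutants and lies between 5.85 and 7.26 in all 4 strains at 30 min.

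Other chaperones and their partners were called in both directions in wild-type cells. Of 15 other genes of the cytosolic Hsp70 system, 4 were called higher and 1 lower at 30 min, with a list median of -0.11. The J-domain proteins APJ1 (2.19, adjusted p = 4.25e-07) and SIS1 (1.29, adjusted p = 0.00496), the nucleotide exchange factor FES1 (0.93, adjusted p = 7.63e-05) and the Hsp70 gene SSA1 (1.48, adjusted p = 0.0166) were higher, and DJP1, a J-domain protein of peroxisomal import, was lower (-0.85, adjusted p = 0.000168). At 60 min 6 were called higher and 0 lower, now with the Hsp70 gene SSA2 (1.23, adjusted p = 0.0127) and the J-domain protein YDJ1 (1.41, adjusted p = 0.00244). YDJ1 was -0.56 at 30 min (adjusted p = 0.117), and its later value was higher than that by 1.97 log2 units (adjusted p = 0.0034). The Hsp70 genes SSA1 and SSA2 are themselves near-identical, so that their values cannot be fully told apart.

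Among 9 Hsp90 co-chaperones, 2 were called higher and 4 lower at 30 min. The cyclophilin CPR6 was higher (0.80, adjusted p = 0.00017), as was SGT1 (0.44, adjusted p = 0.0219), while the cyclophilin CPR7 (-1.21, adjusted p = 0.00562), the phosphatase PPT1 (-1.11, adjusted p = 0.000666), CNS1 (-0.78, adjusted p = 0.00111) and the Hsp90 activator HCH1 (-0.75, adjusted p = 0.000966) were lower. At 60 min 4 were higher and 0 lower, with STI1, which links Hsp70 to Hsp90, at 1.27 (adjusted p = 0.0167) and CPR6 at 1.00 (adjusted p = 7.26e-05). HCH1 was by then at 0.54 (adjusted p = 0.0236), higher than at 30 min by 1.29 log2 units (adjusted p = 0.00114).

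Together, chaperones of the organelles and the cytosolic chaperonin CCT, which folds actin and tubulin, had more genes called lower than higher at 30 min. Of 7 mitochondrial genes the J-domain gene MDJ1 was higher at 30 min (2.02, adjusted p = 1.39e-06) and the exchange factor MGE1 lower (-0.94, adjusted p = 0.000168). Of 7 genes of the endoplasmic reticulum 0 were higher and 4 lower at 30 min, the lowest being the J-domain gene JEM1 (-1.42, adjusted p = 7.17e-07), and 4 were lower at 60 min, where SIL1, an exchange factor for the Hsp70 Kar2, had -1.31 (adjusted p = 0.000219). Of 7 CCT subunits 0 were higher and 3 lower at 30 min (CCT3, CCT5 and CCT6, from -0.64 to -0.90), and at 60 min CCT2 was higher (0.69, adjusted p = 0.00346). All of these list counts stand beside 18% of all probes called higher and 19.4% lower at 30 min, and 7.1% higher and 5.39% lower at 60 min.

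Of 8 other stress proteins, 6 were called higher and 0 lower in wild-type cells at 30 min: the coactivator MBF1 (2.58), the sorting factors BTN2 (1.74) and CUR1 (1.65), and HSP31, HSP32 and SNO4 (1.61 to 1.69), which encode related proteins of the DJ-1 family with near-identical members. At 60 min 5 were higher, beside 7.1% of all probes. HSP150, a cell wall protein, had the lowest ratio of this list at -0.52 (adjusted p = 0.276). Of the 6 regulators, MSN2 was the 1 gene called at 30 min (1.56 or 2.95-fold, adjusted p = 2.65e-05), and it was lower at 60 than at 30 min by 1.16 log2 units (adjusted p = 0.0124). HSF1 had 0.10, MSN4 0.01, HOG1 -0.12, HOT1 0.12 and SKO1 -0.03, and these 5 were not called. Of the osmotic markers, GPP2, which makes glycerol from glycerol 3-phosphate, had 5.66, STL1 5.57, CTT1 5.17, GPD1, which makes glycerol 3-phosphate, 4.40, GRE1 2.87 and HOR7 1.98, all called at 30 min, and all but HOR7 were called at 60 min. In the mutants 0 genes of these 8 lists were called different from wild type at any time in the main fit, as were 0 of all 6201 probes.

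The genes whose ratios ran most like those of the group were found by Pearson correlation over the 22 arrays. These share 2 reference cultures and mostly separate stressed from unstressed samples, so the correlations describe the time course and are given without a test. PRX1, a mitochondrial peroxiredoxin, was nearest to HSP12 (r = 0.985), the proteasome-related gene TMA17 to HSP42 (0.988), SOL4 and PGM2, which act in sugar phosphate metabolism, to HSP104 (0.982 and 0.980), and PAI3, a proteinase inhibitor, to SSE2 (0.983). SSA4 was nearest to VPS73 (0.975), HSP82 to YMR196W (0.975), SSA3 to DUN1 (0.963), HSP30 to HAP2 (0.959) and HSP26 to YDL218W (0.943). HSC82 had no close partner, with GLO4 at 0.815. Within the group the closest pair was SSE2 and SSA4 (0.973), followed by HSP42 with HSP104 (0.966) and SSA4 with HSP104 (0.962), while HSC82 had 0.12 with HSP42 and -0.14 with SSA3.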

How the data were processed

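Total RNA was labeled with Cy3 and Cy5 and hybridized to Agilent yeast arrays, and the authors extracted the scans by the defaults of Feature Extraction (10.5.1.1). Its log10 ratios (Cy5 to Cy3), as deposited, were made from signals that had been background-subtracted, detrended across the slide and dye-normalized. Median, background and background-subtracted intensities, deposited for both dyes, served the alternatives. The log2 ratios of the deposited series matrix equal the log ratios of the same arrays within 0.0005. The detrending was applied to Cy3 alone on 10 of 23 arrays, to both channels on 2 and to neither on 11.

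Log10 ratios were turned to log2 ratios of sample over reference, without 536 control spots and 1 to 38 outlier spots per array, and averaged over the 2 spots of each probe. Between 95.0% and 98.5% of spots were well above background, and 0 were saturated. Precision is limited by how many arrays there are. Of 6252 probes with a value on all arrays, 51 of the region from YDR211W to YDR261C were left out (among them AHA1, HSP78 and TCP1 of the lists), and 6201 were tested over 22 arrays in 11 groups by limma (version 3.58.1, R 4.3.3) at a Benjamini-Hochberg adjusted p of 0.05, after a check on simulated data. Python 3.11.15 (pandas 2.3.3, numpy 2.4.6, matplotlib 3.10.9) did the rest. Gene names follow RefSeq's R64 assembly, where 5756 of 6256 systematic names matched.

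The 10 genes and the 8 lists of 68 other genes were chosen with earlier results of these data known. Named genes are the 10, the genes of a list that were called or had its highest or lowest ratio at 30 min, all regulators and osmotic markers, and the probes with the highest correlations to each of the 10.

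Samples of a set share the reference RNA and the dye orientation by the study's design. Deviations from the group means correlated between samples of the same set at -0.0797 to 0.838 over 55 pairs of groups, and over 0.1 in 52. Alternatives were normexp (offset 50) with loess, signals from before the detrending with loess (6129 probes), the series matrix, a loess surface (span 0.3) removed, median centering, probes well above background (5764), the replicate set as a block, the slide as a block, each sample left out (the lone sample is then assumed to vary like the other groups), and the other readings of the double-mutant labels.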

Additional observations from a re-analysis of the deposited data

Results flagged for a closer look

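HSP12 in unstressed cells was marked because the mutants moved to opposite sides of wild type. Both Cyc8-4KtoR samples were above wild type (2.06 and 0.57, mean 1.31) and both Tup1K270R samples below it (-1.12 and -1.0, mean -1.06), a difference of 2.37 log2 units between the mutants. By the titles the double mutant was likewise above wild type in both samples (1.75 and 0.88, mean 1.31), which again gives a difference from Tup1K270R of 2.37. By the source names of its 0 min array sample B would be at -0.88 and the mean at 0.43. These differences between mutants were not tested, and the mutants share their wild-type reference cultures. On the array that set these cultures side by side HSP12 differed by 0.63, where dye and culture cannot be told apart. The directions by the titles were the same with normexp and loess and in signals taken before the detrending, but with normexp the means were 0.43 in the double mutant, -0.71 in Tup1K270R and 1.19 in Cyc8-4KtoR.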

How the results depend on the processing

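In wild-type cells the count of group genes that differed between 60 and 30 min moved most, from 1 to 6 with normexp and loess. It was 5 with signals from before the detrending, 4 with a loess surface removed and 3 with the replicate set as a block. Signals from before the detrending and the block together, an alternative chosen after seeing the data, gave 8. Of all probes, 7.42% were called higher and 6.11% lower in the main fit. These shares were 23.4% and 25.8% before the detrending, 12.4% and 11.3% with the block, and 28.8% and 33.7% with both. They were not counted for normexp or the surface. The counts are thus not read as particular to these genes. With 1 sample left out, HSP42 in wild-type cells lay between -2.31 and -0.97 for 60 against 30 min (-1.64 with both). In wild type at 30 min HSP26 lay between 1.24 and 2.68, HSP30 between 0.67 and 1.51 and SSA3 between 0.40 and 0.86. In wild type at 60 min HSP42 lay between 1.45 and 2.03 and HSP104 between 1.05 and 1.80. HSC82 in Tup1K270R at 0 min lay between 0.16 and 1.20 (0.68 with both). At 0 min, signals from before the detrending with the block gave 1 in place of 0 for Cyc8-4KtoR (HSP12, higher). For the double mutant they gave 2 in place of 0, HSP12 higher and 1 other gene lower. Beside these, 0.799% of all probes were called higher and 0.441% lower in Cyc8-4KtoR, and 4.45% and 4.36% in the double mutant. Reading set B of the double mutant by its source names gave 4 in place of 8 for its own response (all probes not counted) and turned HSP42 at 60 min to 0.52, in place of -0.73 by the titles. Other differences that no test called changed sign in the comparison of responses: HSP12 in Tup1K270R, between -0.33 and 1.79 with a sample left out (0.73 with both), HSC82 in Tup1K270R, 0.0762 with normexp and 0.0492 with signals from before the detrending, with or without the block (in place of -0.69), and HSP12 in the double mutant, 0.0036 by the source names of the 0 min array (in place of -0.87). The same reading ended the call of HSP26 in that mutant's own response (1.90, adjusted p = 0.0571). The slide as a block, fixed or random, added HSP26 to the responses of both single mutants, and the random block added HSP30 to that of the double mutant. The cause was not tested.

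In all probes, 1117 were called higher and 1202 lower in wild-type cells at 30 min, against 2128 and 2006 with signals from before the detrending, and 440 and 334 at 60 min, against 1479 and 1363. The responses of the mutants had 774 higher and 641 lower in Tup1K270R, 769 and 641 in Cyc8-4KtoR and 786 and 734 in the double mutant, against 1770 and 1668, 1833 and 1682, and 1889 and 1720 with signals from before the detrending. Against wild type at 0 min, where the main fit called 0 probes, the block called 9 higher and 5 lower in Tup1K270R. It called 2 and 3 in Cyc8-4KtoR and 34 and 7 in the double mutant. Signals from before the detrending gave 0 and 0, 10 and 8, and 73 and 20 in the same order, of 6129 probes. In wild-type cells the block gave 703 and 583 at 60 min. The block changed no other call on the 10 genes than those named here and in the text. Median centering, the series matrix and the filter on dim probes changed no call. The 2 samples of a group limit every interval, and normexp narrows the ratios of unstressed samples to an SD of 0.104 over probes for double-mutant sample A.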
